A study of Mus musculus with 19 samples.

Results

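The striatal transcriptome of saline-treated mice with a prefrontal knockout of the D2 dopamine receptor was compared with that of saline-treated control mice, gene by gene, from the deposited counts. The comparison takes 10 of the 19 libraries of the series, 5 knockout mice against 5 control mice, chosen by the group named in each sample title. The other 9 libraries come from mice of the same design that were challenged with amphetamine, 5 control and 4 knockout, and serve here to estimate the spread between mice and for a side-by-side reading.

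All 19 animals were male D2RCre_floxCas9-EGFP mice aged 4 months, in which Cre is driven by the D2 receptor gene and Cre turns on Cas9 with EGFP. Knockout mice (PFC_D2R-KO in the labels) received AAV5 D2R-sgRNA in the medial prefrontal cortex (mPFC), and control mice received AAV5 syn-mCherry at the same site. The labels name no guide RNA for the control virus, so the 2 groups differ in the virus as well as in the targeted gene. From 3 weeks after surgery the mice had daily saline for 5 days, with locomotion recorded for 30 min, and a last injection on day 9, which was saline for the 10 mice compared here. Striatum was taken 90 min after that last injection according to the labels' protocols, which give the time for amphetamine and not separately for saline. Each title names a separate mouse. The labels give no extraction or sequencing batch.

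As background, the medial prefrontal cortex sends excitatory axons to the striatum, where they reach the spiny projection neurons and the cholinergic interneurons. Projection neurons of the direct pathway carry the D1 receptor, and those of the indirect pathway carry the D2 receptor. Cholinergic interneurons also carry the D2 receptor and shape the release of dopamine. The title of the series names these cholinergic interneurons, and the saline comparison asks what the prefrontal knockout leaves in striatal RNA without the drug.

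No gene passed the test. Of 21513 genes, 0 were called at an adjusted p under 0.05 in edgeR's quasi-likelihood test, which is 0% of those tested, and the smallest adjusted p was 0.614. At an unadjusted p under 0.05 there were 815 genes with a higher mean in knockout mice (3.79%) and 893 with a lower mean (4.15%). The 5 knockout values lay entirely above the 5 control values for 110 genes (0.511%) and entirely below them for 86 (0.4%). Fold changes were centred near 0, with a median log2 fold change of 0.0046 and 51% of genes above 0. The median standard error was 0.147 on the log2 scale, and 0.112 for the 15241 genes with a mean of at least 1 CPM, where CPM is the count of a gene relative to the library total after TMM scaling (a correction of those totals). DESeq2 called 2 genes, Spaca6 and Col6a2, both lower in knockout mice (adjusted p 0.0356 for each). The authors' deposited table called 1, Spaca6. limma voom called 0, with 1695 genes at an unadjusted p under 0.05. In the main edgeR test the genes of both directions at an unadjusted p under 0.05 numbered 1708 (7.94%), where 1076 would be expected by chance. Leaving out knockout mouse 3 brought them down to 978 (4.56%), and fitting the 10 saline libraries alone brought them to 815 (4.01%).

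**Figure D1:**
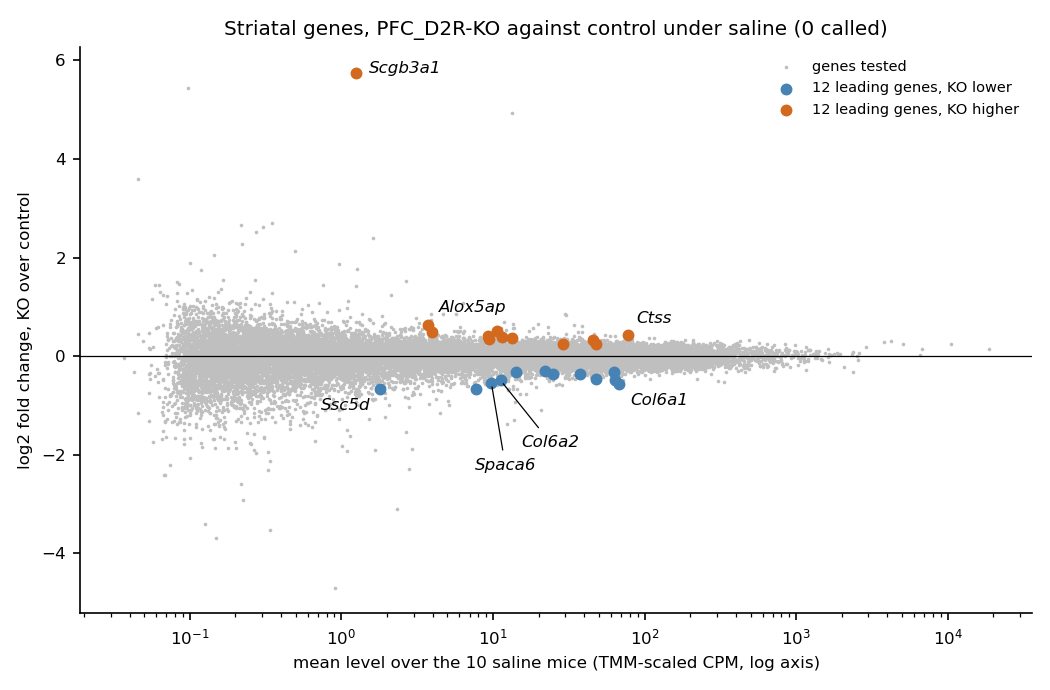
Each grey point is 1 of the 21513 genes tested, with its mean level over the 10 saline mice in TMM-scaled CPM (horizontal, log axis) and its log2 fold change in knockout over control mice (vertical). The coloured points are the 12 leading genes in each direction. They have the smallest p among genes with a mean of at least 1 CPM and a symbol that is no clone or pseudogene name. Scgb3a1 stands near a log2 fold change of 5.75, most of which comes from 1 mouse, and none of the points was called.

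Library totals were higher in knockout mice. They ran from 65578294 to 75756345 counts in control and from 75449097 to 85536346 in knockout libraries, and the means, 71767207 ± 3805031 and 79648831 ± 3711856 (SD, n = 5), differed by 11.0% (exact permutation test, two-sided, p = 0.0159, with 0.00794 the smallest p that 5 against 5 allows). A level of 1 CPM stands for 65 or more counts in every one of the 10 libraries. All pairs of libraries differed beyond sampling noise, with a chi-square per degree of freedom of 13.5 or more. On principal components of the saline libraries, knockout mouse 3 stood apart on the first (24.2% of the variance) and control mouse 5 on the second (19.5%). In knockout mouse 3 short genes were high relative to long ones, by the gene length that the deposited FPKM values imply. With protein-coding genes in 4 equal classes of length, the median log2 CPM of the shortest class minus that of the longest, each relative to the mean of the 10 saline mice, was 0.741 in knockout mouse 3 and between -0.173 and -0.0063 in the other 9 mice. Across groups, the median log2 fold change ran from 0.11 in the shortest to -0.09 in the longest class, and from 0.02 to -0.03 without knockout mouse 3. The part of this length pattern in any single gene was not tested. Values without knockout mouse 3, or without another mouse that moved a result by over 1.5 times, are given for many of the genes and lists below. Of the 39 gene lists described below, 25 had a median that turned sign when 1 of the 10 mice was left out. Their medians lay between -0.12 and 0.13.

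Markers of striatal projection neurons were present in the dissected tissue. All 18 genes of that list, among them Ppp1r1b, Adcy5 and Pde10a, passed the count filter. The list score (mean log2 CPM of the members) lay between 7.75 and 8.46 in the 10 mice. The filter alone does not identify striatum, as all 15 cortical and all 10 thalamic neuron markers passed it too. Mean control scores were 8.23 for this list, 4.09 for the cortical and 4.41 for the thalamic one, each over different genes. Drd2 (ENSMUSG00000032259.9), the gene targeted in prefrontal cortex, lies at chromosome 9, 49251927 to 49319477, in GRCm39. In striatum it is made by indirect-pathway neurons and cholinergic interneurons that were not the site of the virus, so a striatal value is no check of the prefrontal deletion. Drd2 read 154, 145, 144, 95.6 and 85.3 CPM in control mice and 96.9, 111, 116, 76.9 and 126 CPM in knockout mice. Control mice 1 to 3 were highest, and control mice 4 and 5 lay among the knockout values. The log2 fold change was -0.25 ± 0.25 (SE), with an adjusted p of 0.78 and a 95% interval from -0.78 to 0.29. It was -0.16 without either control mouse 1 or knockout mouse 4, and -0.36 without control mouse 5. Without both knockout mouse 3 and control mouse 5 it was -0.39. For Drd1, the dopamine receptor of direct-pathway neurons, the groups overlapped at 151 ± 28.9 against 156 ± 29.9 CPM (SD, n = 5), with a log2 fold change of 0.05 and a 95% interval from -0.43 to 0.52. Its sign turned to -0.02 without knockout mouse 3. In the amphetamine mice the knockout means of both receptors were lower, with log2 fold changes of -1.02 for Drd2 and -0.79 for Drd1. These also missed the threshold in edgeR (adjusted p 0.22 and 0.23). Amphetamine knockout mouse 3 held the lowest values, 34.1 CPM for Drd2 and 53.7 CPM for Drd1. The lower level was not particular to the receptors, as 0 of the 18 projection neuron genes lay above 0 there, with a median of -0.57.

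No cholinergic interneuron gene was called, and the intervals of the 3 defining ones were wide. Chat, the enzyme that makes acetylcholine, read 21.97, 11.1, 22.4, 24.9 and 16.9 CPM in control and 19.6, 20.0, 18.1, 19.9 and 18.4 CPM in knockout mice. Control mouse 2 was the lowest and control mouse 4 the highest of the 10, and all knockout values lay between them. The log2 fold change of Chat was -0.02, with a 95% interval from -0.72 to 0.69. Slc18a3, which loads acetylcholine into vesicles and lies inside the span of Chat, read 9.46 ± 3.25 against 9.92 ± 0.744 CPM (SD, n = 5), and the 95% interval of its log2 fold change of 0.07 ran from -0.58 to 0.72. Without control mouse 2 the value of Slc18a3 was -0.084, and without control mouse 4 it was 0.26. Slc5a7, the choline transporter, read 45.0 ± 8.79 against 50.5 ± 3.92 CPM, and the interval of its log2 fold change of 0.17 ran from -0.43 to 0.76. Without control mouse 2 the log2 fold change of Slc5a7 was 0.058. The spread of Chat was 5.49 CPM in control and 0.889 CPM in knockout mice. Gbx2, a homeobox factor of these interneurons during development, had the smallest p among the 13 cholinergic markers, at a log2 fold change of 0.33 ± 0.23 (SE) that was 0.21 without control mouse 2. Over the list 12 of 13 genes had a fold change above 0 and 0 were called, with a median log2 fold change of 0.07 beside 0.0046 over all genes. That median was -0.018 without control mouse 2, whose score of 3.66 was the lowest of the 10, and 0.21 without control mouse 4. The 17 acetylcholine receptor genes and related enzymes had a median of -0.05, with 4 above 0. Without knockout mouse 3 the median was 0.0070, with 10 above 0.

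Projection neuron genes were not called in either direction. Of 18 genes, 8 had a log2 fold change above 0, and the median was -0.01. Penk, the enkephalin precursor of indirect-pathway neurons, had overlapping groups with medians of 681 and 706 CPM, and knockout mouse 3 stood at 1314 CPM. Its log2 fold change of 0.23 turned to -0.06 without that mouse, and was 0.36 without knockout mouse 4. Tac1, the substance P precursor of direct-pathway neurons, read 227 ± 31.1 against 262 ± 69.6 CPM (SD, n = 5), a log2 fold change of 0.21 that was 0.068 without knockout mouse 3 and 0.32 without knockout mouse 4. Direct-pathway markers had a median of 0.05 over 10 genes and indirect-pathway markers 0.04 over 10. Among 18 genes of dopamine receptors and their transduction, 9 lay above 0 and the median was 0.01. Rgs2, a brake on G protein signalling, had the smallest p of that list, with 123 ± 22.7 CPM in control and 149 ± 25.0 CPM in knockout mice (SD, n = 5). Its log2 fold change was 0.28 ± 0.12 (SE), and 0.17 without knockout mouse 3, which held the highest value at 193 CPM, or 0.18 without control mouse 5. Prkar2b, a regulatory subunit of protein kinase A, had a log2 fold change of 0.16 that was 0.055 without control mouse 5. Genes for dopamine synthesis and terminals had a median of 0.01 over the 10 tested of 12.

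The lowest p in the table belonged to Spaca6 (ENSMUSG00000080316.12, chromosome 17, 18047420 to 18063271 in GRCm39), whose protein is known as a membrane protein of sperm needed for fusion with the egg. Spaca6 read 12.01, 9.91, 13.2, 10.7 and 11.9 CPM in control mice. In knockout mice it read 6.98, 7.59, 7.82, 8.70 and 8.66 CPM. Every knockout mouse lay below every control mouse. The log2 fold change was -0.54 ± 0.11 (SE), with a 95% interval from -0.77 to -0.31 and an adjusted p of 0.61 in edgeR, and it stayed at -0.54 without knockout mouse 3. The authors' deposited table gives -0.54 with an adjusted p of 0.0243 from DESeq2. In the amphetamine mice the knockout mean of Spaca6 was the higher one, 11.98 ± 1.98 CPM (SD, n = 4) against 10.5 ± 1.21 CPM (SD, n = 5), with overlapping groups. The difference between the saline and amphetamine fold changes was -0.72 ± 0.16 (SE, adjusted p 0.52).

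Spaca6 also serves as host gene of a microRNA cluster. Its RefSeq span in GRCm38.p6 (chr17:17826085-17843010) holds 3 microRNA genes on the same strand, whose mature 5′ arms are shown because they are what the host locus of the lowest p encodes beside the protein. Capitals mark the seed, bases 2 to 8, which pairs with target RNAs.
mmu-miR-99b-5p: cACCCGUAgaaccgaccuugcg
mmu-let-7e-5p: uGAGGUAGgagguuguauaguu
mmu-miR-125a-5p: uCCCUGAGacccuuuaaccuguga
The sequences are RefSeq's, at chr17:17830194-17830215, chr17:17830366-17830387 and chr17:17830817-17830840 of GRCm38.p6, plus strand. The 3 seeds differ from each other. In the GENCODE annotation of GRCm38, miR-99b and let-7e lie in introns of Spaca6, and miR-125a overlaps an exon of a noncoding Spaca6 transcript. Levels of the microRNAs were not analysed here.

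Collagen VI came next among the lower genes. Col6a2 (ENSMUSG00000020241.14, chromosome 10, 76431596 to 76459464) encodes a chain of collagen VI, a microfibril protein of the extracellular matrix. It read 11.8, 13.3, 14.8, 12.1 and 13.6 CPM in control and 9.39, 10.9, 7.38, 8.60 and 10.4 CPM in knockout mice, so the groups did not overlap. The log2 fold change of Col6a2 was -0.49 ± 0.10 (SE), with a 95% interval from -0.70 to -0.28 and an adjusted p of 0.61. Col6a1 (ENSMUSG00000001119.8), which encodes another chain and is the neighbour of Col6a2 on chromosome 10 at 76544626 to 76562002, read 74.4, 88.3, 108, 48.6 and 86.9 CPM in control mice. Its knockout values were 53.4, 54.7, 51.1, 58.0 and 58.7 CPM. Control mouse 4 was the lowest of the 10, the other control mice lay above every knockout mouse, and the log2 fold change was -0.56 ± 0.15 (SE). Without control mouse 4 it was -0.70. Col6a3, the third chain of the list, had a log2 fold change of -0.50 ± 0.27 (SE) and overlapping groups. It was -0.31 without knockout mouse 3 and -0.75 without knockout mouse 4.

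**Figure D2:**
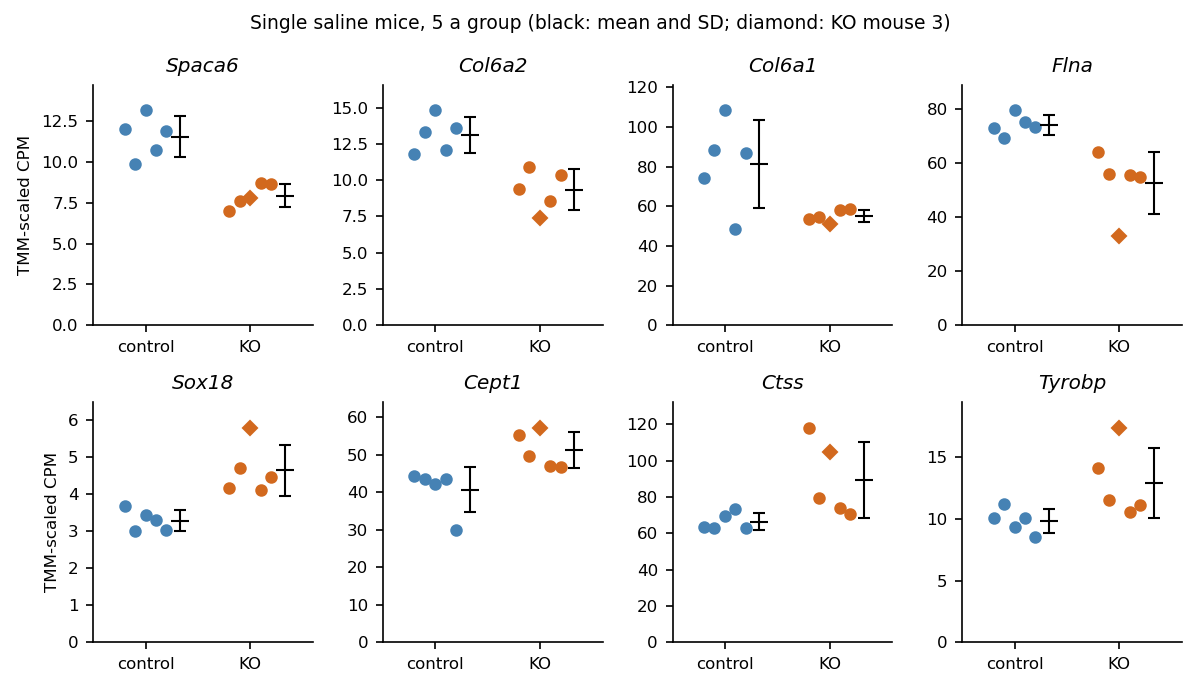
TMM-scaled CPM of each of the 5 control and 5 knockout saline mice for 4 genes with lower and 4 with higher knockout means, with the mean and SD in black and knockout mouse 3 as a diamond. Groups are apart for Spaca6, Col6a2, Flna, Sox18 and Cept1 and overlap for Col6a1, Ctss and Tyrobp.

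The other lower genes of smallest p were Ssc5d, Hinfp, Zfp512b, Snapc4, Flna, Dot1l, Zfhx2os, Rps6kb2 and Cxadr, and the adjusted p of each was 0.61. Flna, an actin crosslinker on the X chromosome, read 73.2, 69.3, 79.6, 75.1 and 73.6 CPM in control and 64.1, 55.9, 33.2, 55.7 and 55.1 CPM in knockout mice. Its groups did not overlap, knockout mouse 3 was far below the rest, and the log2 fold change of -0.49 became -0.37 without that mouse. Snapc4, a subunit of the complex that starts transcription of small nuclear RNA genes, read 28.0 ± 2.26 against 21.9 ± 2.77 CPM (SD, n = 5), with no overlap and a log2 fold change of -0.35. Hinfp, a zinc finger factor of histone genes, read 24.4 ± 1.17 against 19.7 ± 2.13 CPM, again with no overlap. Dot1l, a methyltransferase of histone H3, had a log2 fold change of -0.46 ± 0.12 (SE), and -0.37 without knockout mouse 3. Rps6kb2, an S6 kinase, had no overlap and a log2 fold change of -0.33. Zfhx2os is annotated antisense to Zfhx2, and since the strand setting of the counting is not given in the sources used here, its log2 fold change of -0.66 may hold reads of the opposite gene. Ssc5d, a secreted scavenger receptor protein, had the lowest fold change of these genes, -0.66 ± 0.16 (SE), at 2.19 against 1.38 CPM. Zfp512b and Cxadr, a cell adhesion protein known as a virus receptor, had log2 fold changes of -0.32 and -0.37. Groups were apart for 6 of the 12 leading lower genes, beside 0.4% of all genes, and the rule had chosen them on this contrast.

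Among the 12 leading genes with higher knockout means, 4 are known from macrophages and microglia, a grouping made after their values were seen. Ctss, a lysosomal protease of these cells, read 63.7, 62.9, 69.5, 73.4 and 63.0 CPM in control and 118, 79.5, 105, 74.1 and 70.9 CPM in knockout mice. Knockout mice 1 and 3 were highest and knockout mouse 5 lay among the control values. The log2 fold change of Ctss was 0.43 ± 0.12 (SE), with an adjusted p of 0.61, and 0.36 without knockout mouse 3 and 0.30 without knockout mouse 1. Tyrobp, the adaptor of the TREM2 receptor, had medians of 10.04 and 11.5 CPM and a log2 fold change of 0.39 ± 0.12 (SE), which was 0.26 without knockout mouse 3. Ly86, a partner of a toll-like receptor, read 8.78 ± 1.22 against 12.5 ± 2.88 CPM (SD, n = 5). Alox5ap, which hands arachidonic acid to a lipoxygenase, had no overlap between groups. Knockout mouse 1 held the highest Alox5ap value, 7.45 CPM, and without it the log2 fold change of 0.64 became 0.39.

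Sox18, a transcription factor of endothelial cells, read 3.67, 3.01, 3.44, 3.30 and 3.03 CPM in control and 4.16, 4.70, 5.80, 4.12 and 4.46 CPM in knockout mice. All knockout values were above all control values, with a log2 fold change of 0.50 ± 0.13 (SE) that was 0.40 without knockout mouse 3. Cept1, an enzyme of the last step of phosphatidylcholine and phosphatidylethanolamine synthesis, read 40.8 ± 6.01 against 51.2 ± 4.80 CPM (SD, n = 5) with no overlap. Control mouse 5 was lowest at 30.1 CPM, and the log2 fold change of Cept1 was 0.33, or 0.23 without that mouse. Zfp358 and Tmed5, a cargo protein of the secretory pathway, also had no overlap, at log2 fold changes of 0.24 each. Crh, the corticotropin-releasing hormone, read 6.83, 7.44, 7.56, 10.6 and 7.30 CPM in control and 9.88, 9.03, 12.1, 11.3 and 10.6 CPM in knockout mice. Control mouse 4 alone reached the knockout range, and the log2 fold change was 0.41 ± 0.12 (SE). Tmem69 and Supt3 had log2 fold changes of 0.38 and 0.34. Scgb3a1, a secreted airway protein, was at 11.8 CPM in knockout mouse 1 and between 0 and 0.188 CPM in the other 9 mice, so its log2 fold change of 5.75 rests on that mouse and was 1.40 without it. Of these 12 genes 5 had groups that were apart, beside 0.511% of all genes. The rule had chosen these genes too on this contrast, which by itself favours groups that are apart.

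Most microglial markers had higher knockout means, and none was called. Of 14 markers 13 had a log2 fold change above 0, beside 51% of all genes, and the median was 0.26. C1qa and C1qc, subunits of the complement protein C1q, had log2 fold changes of 0.39 and 0.29, and without knockout mouse 1, where C1qa was at 78.6 CPM, they were 0.16 and 0.18. List scores were 4.69, 4.91, 4.73, 4.75 and 4.16 in control and 4.90, 4.92, 5.07, 4.75 and 4.81 in knockout mice. Control mouse 5 was lowest and knockout mouse 3 highest. The median of the list was 0.13 without control mouse 5, 0.19 without knockout mouse 3 and 0.089 without both. In bulk tissue, a different number of cells of a type and a different amount of RNA per cell cannot be told apart. In the amphetamine mice 2 of the 14 genes lay above 0, with a median of -0.10. Astrocyte, oligodendrocyte myelin and precursor markers had medians of 0.03, -0.01 and 0.07.

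Chaperone genes lay slightly higher in knockout mice. All 17 genes of the cytosolic heat shock list, which also holds the mitochondrial Hspe1, had a log2 fold change above 0. Their median was 0.14, or 0.15 without knockout mouse 3, and 0 were called. Without knockout mouse 1 the median was 0.10. It was 0.051 without knockout mouse 1 and control mouse 5, a setting chosen after seeing the data. Hspa8, the constitutive Hsp70 chaperone, read 1568, 1548, 1530, 1592 and 1436 CPM in control and 1756, 1678, 1653, 1691 and 1672 CPM in knockout mice, with no overlap. Its log2 fold change was 0.14 ± 0.06 (SE), with a 95% interval from 0.02 to 0.26 and an adjusted p of 0.61. Ahsa1, which stimulates Hsp90, read 104 ± 8.19 against 119 ± 8.12 CPM (SD, n = 5), a log2 fold change of 0.20. Dnaja1, a partner of Hsp70, had a log2 fold change of 0.13, and Hspe1, the mitochondrial Hsp10, one of 0.30 that was 0.15 without knockout mouse 3. The list held 4 genes at an unadjusted p under 0.05, beside 3.79% of all genes in that direction. The list of endoplasmic reticulum chaperones, which also holds the transcription factor Xbp1, had a median of 0.14 with 16 of 17 above 0. Without knockout mouse 3 that median was 0.10. Pdia3, a protein disulfide isomerase, read 196 ± 5.22 against 221 ± 13.7 CPM (SD, n = 5) with no overlap, and 6 genes of the list had an unadjusted p under 0.05. Xbp1, a transcription factor of the unfolded protein response, had a log2 fold change of 0.22, Manf, a secreted stress protein, 0.26 (0.14 without knockout mouse 3) and Pdia6, another isomerase, 0.21. List scores in knockout mice ran from 6.71 to 7.02 for the cytosolic and from 6.49 to 6.70 for the reticulum chaperones, and in control mice from 6.49 to 6.76 and from 6.36 to 6.502. Under amphetamine the medians were -0.06 and 0.0024.

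**Figure D3:**
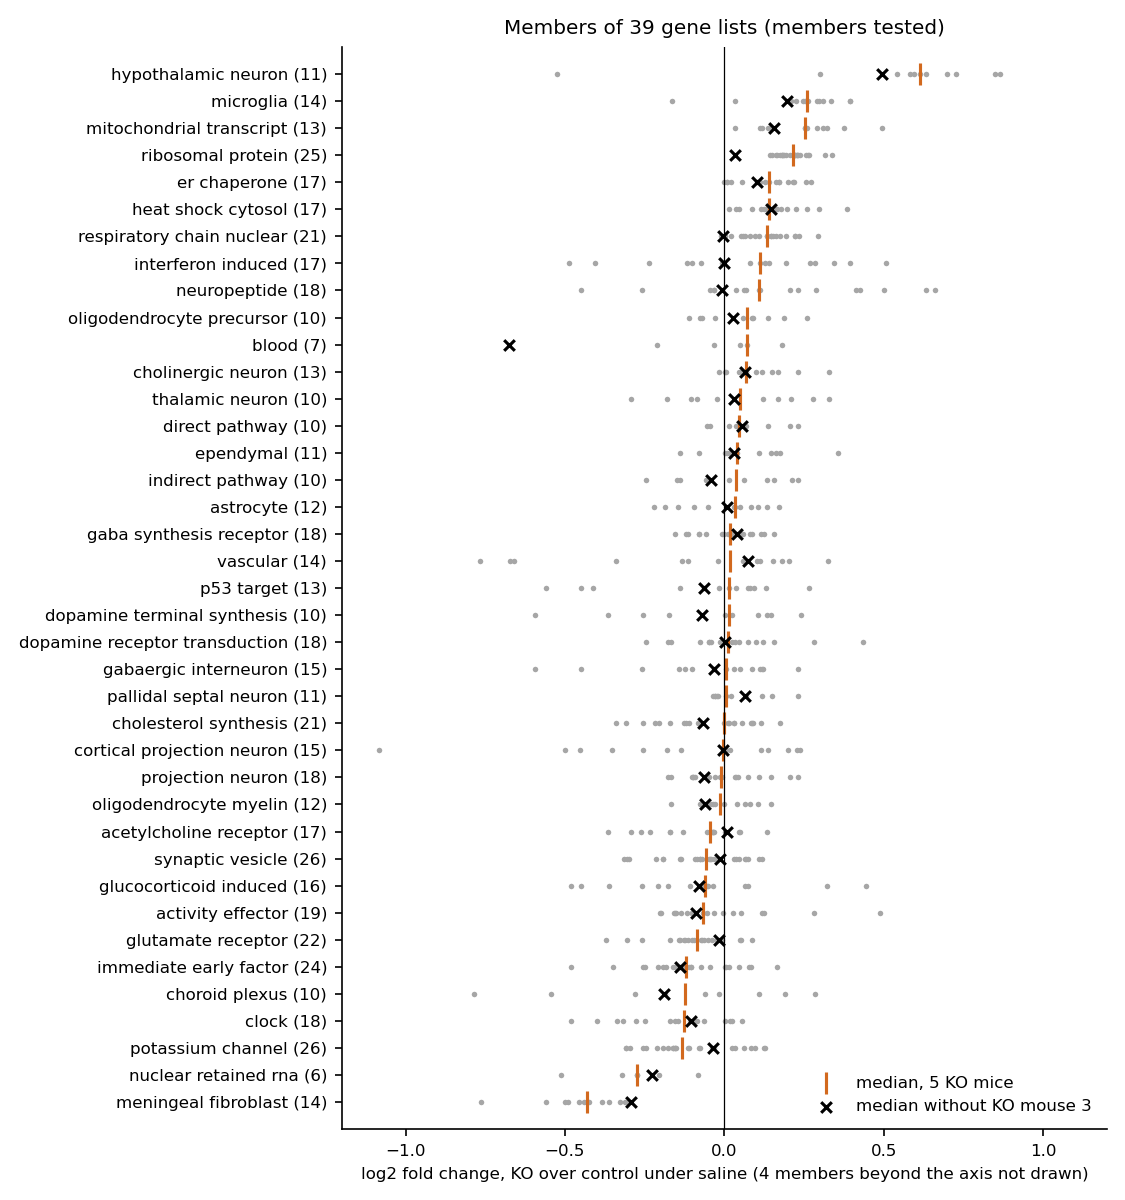
Log2 fold change in knockout over control mice under saline for the members tested of 39 gene lists (grey points), with the list median over the 5 knockout mice (orange bar) and without knockout mouse 3 (cross), and the number tested in brackets. The blood and ribosomal protein medians move most between bar and cross, and 4 members lie beyond the axis.

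Genes of meningeal fibroblasts had lower knockout means throughout. All 14 markers, which include the 3 collagen VI chains, had a log2 fold change below 0, between -0.76 and -0.30, with a median of -0.43 and 0 called. Bgn, a matrix proteoglycan, read 13.3, 16.0, 15.02, 18.0 and 21.6 CPM in control and 13.7, 14.6, 8.47, 13.4 and 12.2 CPM in knockout mice. Its groups overlapped, knockout mouse 3 was lowest, and the log2 fold change was -0.43 ± 0.22 (SE). Scores of the list were 3.29, 3.32, 3.66, 3.85 and 3.77 in control and 3.33, 3.40, 2.31, 3.45 and 3.08 in knockout mice. The lowest knockout value was that of mouse 3, and without it the median was -0.29 with all 14 still below 0. In the amphetamine mice 13 of the 14 lay above 0, with a median of 0.51. The amount of meningeal tissue in each dissection was not measured, and its part in the Col6a1, Col6a2 and Bgn values was not tested. Vascular markers had a median of 0.02 over 14 genes. Pdgfrb, the pericyte receptor, had a log2 fold change of -0.34 that was -0.15 without control mouse 5, and Kcnj8, a pericyte potassium channel, one of 0.33.

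Nuclear retained RNAs were lower on average. Malat1, a long noncoding RNA of nuclear speckles, read 437, 323, 426, 281 and 326 CPM in control and 285, 270, 195, 218 and 288 CPM in knockout mice. Control mouse 4 overlapped the knockout values, and the log2 fold change was -0.51 ± 0.15 (SE, adjusted p 0.61), or -0.44 without knockout mouse 3. Meg3, an imprinted noncoding RNA, read 2619 ± 528 against 2095 ± 228 CPM (SD, n = 5), and Snhg11, a neuronal host of small nucleolar RNAs, 1275 ± 168 against 1055 ± 104 CPM. All 6 RNAs of this list lay below 0, with a median of -0.27 and -0.23 without knockout mouse 3. Under amphetamine 5 of 6 lay above 0, and Malat1 stayed below it, at a log2 fold change of -0.30.

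Transcripts of the mitochondrial genome and of ribosomal proteins moved with knockout mouse 3. All 13 mitochondrial transcripts had a log2 fold change above 0, with a median of 0.25, or 0.15 without that mouse. mt-Co2, a subunit of cytochrome oxidase, read between 20.2 and 23.9 CPM in control mice and 22.3, 25.1, 42.1, 24.3 and 26.9 CPM in knockout mice. The value of knockout mouse 3 was the highest of the 10, and the log2 fold change of mt-Co2 was 0.37 with it and 0.18 without it. mt-Co3, of the same complex, and mt-Nd3, of complex I, had log2 fold changes of 0.32 and 0.49, or 0.19 and 0.31 without knockout mouse 3. These named transcripts were chosen by p and were low for their list. The mean control score of the list was 7.97 (log2 CPM), while mt-Nd3 had a mean of only 30.1 CPM in control mice. Whether reads shared with near-identical genes went uncounted in them was not tested, so their CPM may not be their full level. All 25 ribosomal protein genes lay above 0, with a median of 0.21 that was 0.03 without knockout mouse 3. Rpsa, a protein of the small subunit, read between 496 and 530 CPM in control mice and 552, 562, 886, 528 and 564 CPM in knockout mice. Rplp1, of the large subunit, stood at 858 CPM in that mouse and at 515 CPM or less in the other 9. Of 25 nuclear respiratory chain genes 21 were tested, 20 lay above 0, and the median of 0.13 became -0.01. Cox5a, a cytochrome oxidase subunit, and Ndufa1, of complex I, had log2 fold changes of 0.24 and 0.29, and 0.08 each without knockout mouse 3. In the same mouse the scores of glutamate receptors, 5.92, and potassium channels, 5.76, were the lowest of the 10. Grin2b, an NMDA receptor subunit, stood at 110 CPM there and from 231 to 322 CPM elsewhere. Over the groups Grin2b had a log2 fold change of -0.30, and -0.14 without that mouse. Grin1, the obligate NMDA receptor subunit, had one of -0.14, and Kcnq3, a voltage-gated potassium channel, -0.25, or -0.12 without knockout mouse 3. Synaptic vesicle genes had a median of -0.06 and GABA genes 0.02.

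Activity and clock genes had lower knockout means that leaned on single control mice. Immediate early factors had a median of -0.12 with 7 of 24 above 0, and 0.02 without control mouse 2, whose score of 4.92 was the highest. Nr4a3, an orphan nuclear receptor induced by activity, read 22.02, 30.1, 22.4, 18.8 and 17.5 CPM in control and 14.0, 20.9, 14.7, 16.7 and 20.6 CPM in knockout mice. Its groups overlapped and the log2 fold change was -0.35 ± 0.27 (SE), or -0.22 without control mouse 2. Activity-induced effectors had a median of -0.07, and 0.02 without control mouse 2. Of 18 clock genes 4 lay above 0, with a median of -0.13 that was -0.05 without control mouse 5. Per1, a clock repressor that glucocorticoids also induce, stood at 146 CPM in control mouse 5 and between 50.9 and 75.4 CPM in the other 9 mice. Its log2 fold change was -0.48 ± 0.19 (SE), and -0.19 without that mouse. Arntl, the activator that pairs with Clock, had a log2 fold change of -0.34, and Cry2, a repressor, one of -0.25. Without control mouse 5 they were -0.19 and -0.09.

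**Figure D4:**
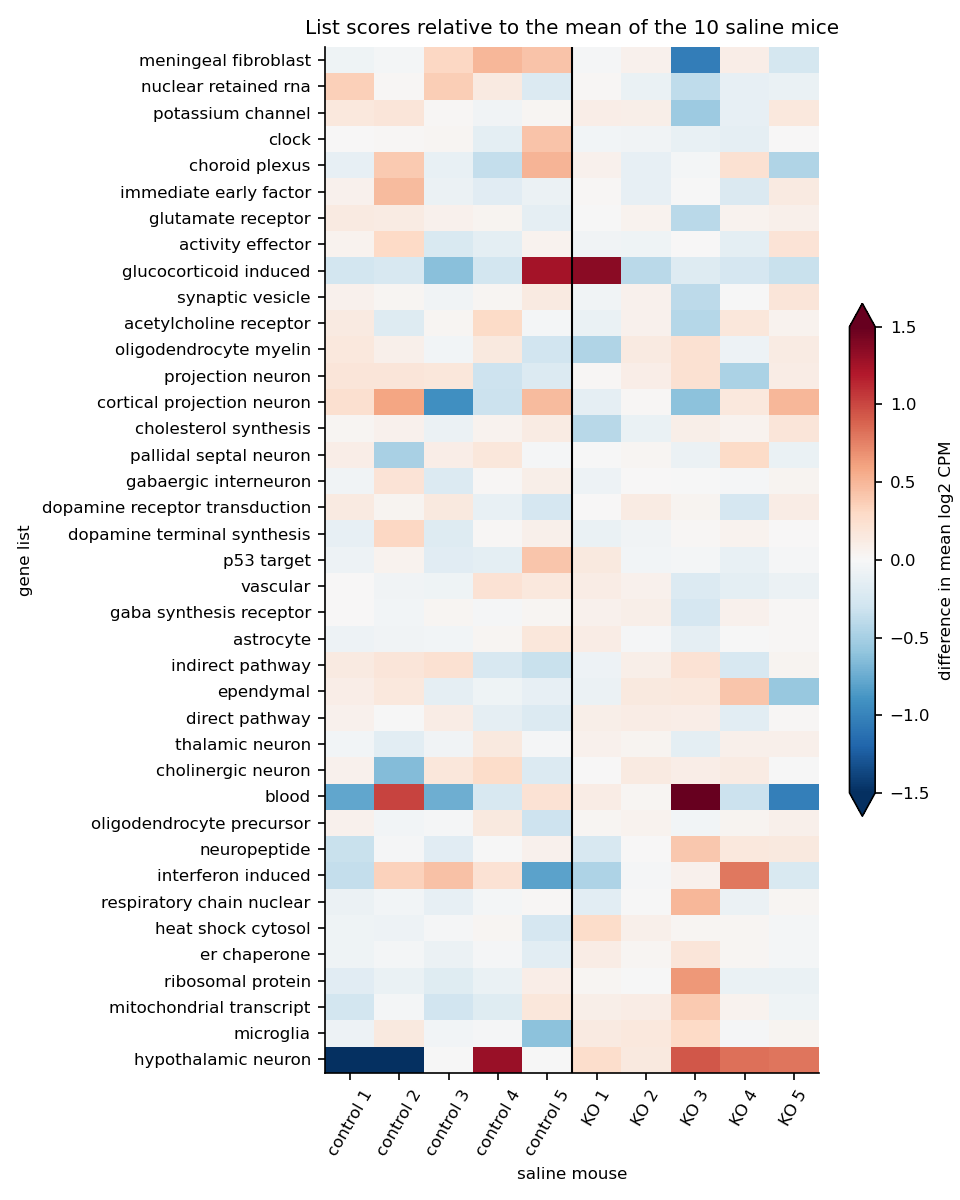
Score of each gene list (mean log2 CPM of its members) in each of the 10 saline mice, relative to the mean of all 10, as colour. The glucocorticoid-induced score is high in control mouse 5 and knockout mouse 1 alone, though not through the same genes among those named. The hypothalamic score is low in control mice 1 and 2, and the ribosomal and blood scores are high in knockout mouse 3.

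The score of genes induced by glucocorticoids was high in 1 mouse of each group. Their score was 6.08 in control mouse 5 and 6.19 in knockout mouse 1, and between 4.21 and 4.64 in the other 8 mice, and the median log2 fold change of the list was -0.06 with 0 of 16 genes called. It was 0.31 without control mouse 5 and -0.26 without knockout mouse 1. Lcn2, a secreted iron-binding protein of inflammation, stood at 124 CPM in knockout mouse 1 and at 3.07 CPM or less in the other 9, which gave a log2 fold change of 4.94 that was 0.79 without that mouse. Klf9, a factor induced by glucocorticoids, stood at 394 CPM in control mouse 5, and its log2 fold change of -0.18 turned to 0.08 without that mouse. In knockout mouse 1 Klf9 stood at 246 CPM. Per1 stood at 146 CPM in control mouse 5 and 64.4 CPM in knockout mouse 1, and Lcn2 at 1.77 and 124 CPM. Without both mice, a setting chosen after seeing the data, 0 genes were called and 2058 had an unadjusted p under 0.05. Lrg1 (11.7 against 0.900 CPM or less), Ch25h and Cfb, named after their values were seen, were also at least 2-fold higher in knockout mouse 1 than in any other mouse. In control mouse 5, Cx3cr1, the fractalkine receptor of microglia, stood at 14.2 CPM against 42.0 CPM or more elsewhere, a gene chosen after its values were seen.

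Markers of neighbouring regions spread widely among the mice of a group. Hypothalamic markers had the highest median of the 39 lists, 0.61 over the 11 tested of 12, with 10 above 0 and 0 at an unadjusted p under 0.05. Their scores were -0.74, -1.67, 0.92, 2.22 and 0.92 in control and 1.19, 1.07, 1.85, 1.75 and 1.73 in knockout mice. Control mice 1 and 2 were lowest and control mouse 4 highest, so the knockout values lay inside the control range. Trh, the thyrotropin-releasing hormone, read 8.02, 16.5, 27.2, 50.5 and 31.1 CPM in control and 30.2, 24.4, 55.9, 54.5 and 41.8 CPM in knockout mice. Its log2 fold change was 0.63 ± 0.44 (SE), 0.40 without control mouse 1 and 1.00 without control mouse 4. Pomc, the precursor of melanocortins, had one of 0.30 that was 0.067 without knockout mouse 3. The list median was 0.41 without control mouse 2 and 1.05 without control mouse 4. Under amphetamine the list median was 1.63. Oxt, the oxytocin gene and a member of the list chosen after its values were seen, stood at 0.364 CPM in control mouse 2 and at 3.53 CPM or more in the other 9. In the same control mouse Omp, a marker of olfactory neurons chosen likewise, stood at 19.2 CPM against 0.704 CPM or less. Markers of cortical projection neurons and of pallidum and septum had medians of -0.01 and 0.005. Thalamic, ependymal and choroid plexus markers had medians of 0.05, 0.04 and -0.12. Blood genes had a median of 0.07 that was -0.68 without knockout mouse 3, whose blood score was highest. S100a8, a granulocyte protein, was at 4.00 CPM in knockout mouse 1 and 2.37 CPM in knockout mouse 3. Its other values were all below 1 CPM.

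Among neuropeptides 13 of 18 genes lay above 0 with a median of 0.11, which was -0.01 without knockout mouse 3. Nts, neurotensin, read 36.7, 36.1, 58.0, 57.8 and 43.7 CPM in control and 45.8, 64.7, 90.6, 59.2 and 52.0 CPM in knockout mice. Its groups overlapped and its log2 fold change was 0.43 ± 0.21 (SE), or 0.25 without knockout mouse 3. Cartpt, a peptide of cocaine and amphetamine response, had a log2 fold change of 0.50 that was 0.20 without knockout mouse 3, at 79.3 CPM. Interferon-induced genes had a median of 0.11, which was -0.18 without knockout mouse 4 and -0.0013 without knockout mouse 3. Ifit3 of that list had a log2 fold change of -0.49 ± 0.26 (SE), or -0.30 without control mouse 3. Cholesterol synthesis, p53 target and GABAergic interneuron genes had medians within 0.02 of 0. Of the 39 lists, 4 had a median above 0.2, 2 below -0.2 and 33 between, and without knockout mouse 3 there were 1 above and 3 below.

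The amphetamine mice are other animals than the saline mice and give the same genotype contrast under another treatment. Of the 12 leading lower genes 7 kept their sign there, and of the 12 leading higher genes 8, beside 52.1% of all genes with the same sign in both. None of the 24 had an unadjusted p under 0.05 with the same sign. Col6a2 had the opposite sign with groups apart, 12.6 ± 0.711 CPM in control (SD, n = 5) and 15.6 ± 1.71 CPM in knockout mice (SD, n = 4). Its log2 fold change there was 0.31 ± 0.11 (SE, adjusted p 0.26), and the difference from saline was -0.80 ± 0.15 (SE, adjusted p 0.45), the smallest adjusted p of that test. Snapc4 was also higher and without overlap, at a log2 fold change of 0.20. Col6a1 and Dot1l kept a lower knockout mean, at -0.11 and -0.20, and Sox18 and Supt3 a higher one, at 0.18 and 0.19. Over all 21513 genes 0 were called under amphetamine (2749 at an unadjusted p under 0.05) and 0 for the difference between treatments (1991), so no genotype effect was shown to depend on treatment.

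**Figure D5:**
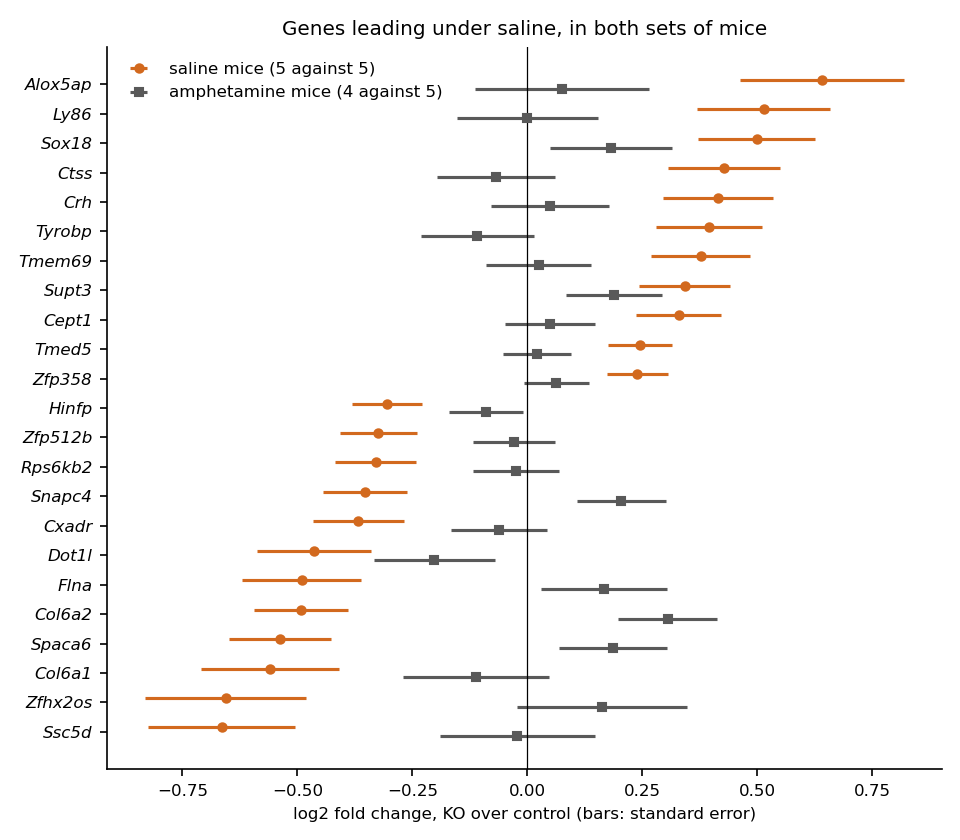
Log2 fold change in knockout over control mice with its standard error for 23 of the 24 leading genes, in the saline mice that chose them (orange circles) and in the amphetamine mice (grey squares); Scgb3a1 is left out for its scale. The saline values lie from -0.66 to 0.64, and the amphetamine values lie nearer to 0 or on the other side.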

How the data were processed

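Striatal RNA of 19 mice was sequenced. The whole-number counts per gene are as deposited; per the submitters' processing notes, FastQC 0.11.5, Trim Galore 0.5.0, STAR 2.6.0c, HTSeq 0.6.1p2, DESeq2 1.26.0s, R 3.6.1 and GRCm39 were used, with roles and order not given. No label or header states the annotation release or strand setting. Reads of overlapping, antisense and near-identical genes may be mixed or left uncounted. The authors' deposited tables hold FPKM values, scaled by gene length and library total and used here only for relative gene length. The same deposited table holds the authors' log2 fold changes, from DESeq2 per the table's title, and their adjusted p-values. Symbols and GRCm39 coordinates come from the deposited tables; RefSeq and GENCODE tables of GRCm38 gave the microRNA sequences and their positions.

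The main test was edgeR 4.0.16 (R 4.3.3) on the counts. The low-count filter filterByExpr left 21513 of 49592 genes, and a model with 1 mean for each of the 4 groups was fitted to all 19 TMM-scaled libraries (quasi-likelihood, robust, 15 residual degrees of freedom), and p-values were adjusted by Benjamini-Hochberg over all genes tested, with a call at 0.05. The standard error is the log2 fold change over the root of F. Levels are TMM-scaled CPM, and list scores are means of log2 CPM with a prior count of 2. Alternatives were DESeq2 1.42.0 and its size factors, limma 3.58.1 with voom, the 10 saline libraries alone, no filter, at least 1 CPM in at least 5 libraries, thinning to the smallest total, a replicate block, 3 neighbouring-tissue covariates and leaving out mice. The code was checked on simulated data. The edgeR p-values set a group difference against the spread between mice, estimated over all 19 libraries.

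Named genes are the 12 of smallest p in each direction with a mean of at least 1 CPM and a symbol that is no clone or pseudogene name; Drd2, Drd1, Chat, Slc18a3 and Slc5a7; and up to 4 genes of smallest p per list described, of which some are not reported here. The comparison and the 39 lists (607 entries, 569 genes, 32 of them in more than 1 list) were chosen with earlier results of these data known.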

Additional observations from a re-analysis of the deposited data

Results flagged for a closer look

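In 27 of 226 groups of 5 mice examined (11.95%), over the named genes, list scores and library totals, 1 mouse lay far from its 4 group mates, where chance gives about 1 in 20; genes of a list share their mice, so these are not independent. Of the 27, 13 concern knockout mouse 3, 6 control mouse 5 and 4 knockout mouse 1. All levels are TMM-scaled CPM and all scores mean log2 CPM.

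Knockout mouse 3 stood above its group for Rpsa (886 CPM) and Rplp1 (858 CPM), proteins of the ribosome. It was also high for Ndufa1 (66.2 CPM), mt-Co2 (42.1 CPM) and mt-Co3 (32.0 CPM), parts of the respiratory chain, for Hspe1 (104 CPM), a mitochondrial chaperone, and for Rgs2 (193 CPM), a G protein regulator. Its score was high for ribosomal proteins (8.77) and nuclear respiratory chain genes (7.70). Low values in the same mouse were Grin2b (110 CPM) and the scores of GABA genes (7.53), glutamate receptors (5.92) and thalamic markers (4.29). This is also the mouse whose shortest-minus-longest length contrast was 0.741, and the part of that contrast in these values was not tested.

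Control mouse 5 was high for the clock genes Per1 (146 CPM) and Cry2 (203 CPM), for Klf9 (394 CPM) and for Pdgfrb (39.3 CPM), and low for Cept1 (30.1 CPM). Its glucocorticoid-induced score was 6.08, and that of knockout mouse 1 was 6.19. Knockout mouse 1 further stood out for Lcn2 (124 CPM) and Scgb3a1 (11.8 CPM), and was low for Slc18a3 (8.62 CPM). Elsewhere, Crh was high in control mouse 4 (10.6 CPM) and Slc5a7 in knockout mouse 2 (57.3 CPM), and mt-Nd3 was low in control mouse 3 (27.0 CPM) and Drd1 in knockout mouse 4 (104 CPM).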

How the results depend on the processing

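The count of called genes was 0 in the edgeR test and in 20 of the 21 other settings, and 2 with DESeq2 (Spaca6 and Col6a2). Genes at an unadjusted p under 0.05 numbered 1708 in that test, 815 in the saline libraries alone, 978 without knockout mouse 3, 976 without knockout mouse 3 and control mouse 5, 2058 without knockout mouse 1 and control mouse 5 (a setting chosen after seeing the data), 2271 without control mouse 4, and from 1303 to 2446 in the remaining settings. The difference in library totals ranged from 6334396 to 8931557 counts over the settings that left out 1 mouse. Mouse numbers did not pair the groups: same-numbered mice had correlations of their deviations from -0.0636 to 0.154, and 2 of 5 correlated best with their own number. With the replicate block 0 genes were called and 1526 had an unadjusted p under 0.05.

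Of 1592 values of single genes under other settings, 1577 had the sign of the reported one, and the other 15 lay between -0.084 and 0.087. For Chat, the log2 fold change was 0.034 with voom. With 1 mouse left out, the ranges were -0.17 to 0.087 for Chat, -0.084 to 0.26 for Slc18a3, -0.034 to 0.15 for Drd1, -0.060 to 0.36 for Penk and -0.27 to 0.077 for Klf9. Without knockout mouse 3 and control mouse 5 they were -0.078 for Drd1, -0.036 for Penk and 0.055 for Klf9, and without knockout mouse 1 and control mouse 5 -0.049 for Drd1 and 0.016 for Klf9. The cause was not tested. Of 819 list medians, 818 moved by less than 1 SD of the list score between mice. The exception was cholesterol synthesis, -0.19 without knockout mouse 5. That limit was wide beside most medians, and 25 of the 39 lists had a median that turned sign without 1 mouse. The median standard error of 0.147 on the log2 scale limits what 5 mice a group can show.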

Other observations

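Single mice departed from the rest in genes of their own, and the genes below were chosen after their values were seen. Of 15241 genes with a mean of at least 1 CPM, knockout mouse 3 was at least 2-fold below all 9 other saline mice for 256 and above them for 2. Stxbp5l, a syntaxin-binding protein, read 6.30 CPM there against 34.6 CPM or more elsewhere. Gucy1a2, a subunit of the nitric oxide receptor, read 1.74 CPM against 12.04 CPM or more. Control mouse 2 stood apart for 26 genes above and 35 below. Its high genes included Eomes, a transcription factor found in olfactory bulb projection neurons, at 14.4 CPM against 2.25 CPM or less, and Doc2g, at 55.3 CPM against 9.85 CPM or less. Its low genes included Gal, the galanin precursor, at 1.36 CPM against 3.99 CPM or more. Control mouse 5 had 29 genes above and 79 below. Igkc and Igha, constant regions of antibodies, read 13.03 and 6.20 CPM there, against at most 4.15 and 1.47 CPM. Control mouse 3 had 7 genes below. Slc17a7, the vesicular glutamate transporter of cortical neurons, was one of them, at 39.3 CPM against 81.7 CPM or more. Knockout mouse 1 had 42 genes above and 11 below, and Opalin, a myelin protein of oligodendrocytes, was at 5.08 CPM there against 16.6 CPM or more. Control mice 1 and 4 and knockout mice 2, 4 and 5 had at most 3 such genes in either direction.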
